A study of Mus musculus with 33 samples.

Results

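The genes described are the 10 listed genes of the MHC class I and immunoproteasome pathway: the classical class I heavy chains H2-K1 and H2-D1, the light chain B2m, the peptide transporter genes Tap1 and Tap2, tapasin (Tapbp), the immunoproteasome catalytic subunits Psmb8, Psmb9 and Psmb10, and the regulator Nlrc5. They were chosen by name, from probe sets that the platform annotation pairs with a single symbol, and where a gene had several, the brightest on average was used. All 10 were on the array, out of 18193 genes in all, and all 10 passed the filter on low signal that left 13642 genes to test. Mouse livers were profiled on 33 Affymetrix arrays along a course of 70% partial hepatectomy, in which lobes are cut away and the remaining liver grows back. There were 10 times after surgery, 4 within the first day (0.25, 0.5, 0.75 and 1 d), then 1.5, 2, 3 and 4 d, and lastly 7 d and 14 d, each compared with 0 d, and every time had 3 biological replicates. The labels give liver for every group and name the same operation throughout, and the 0 d group was taken here as unoperated. They name no sham-operated group and were read here without a strain, age or sex. Effects of surgery and of tissue loss therefore cannot be told apart, and neither can the class I haplotype be stated.

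MHC class I molecules carry short peptides from proteins made inside the cell to the cell surface, where cytotoxic T cells and natural killer cells read them. The proteasome cuts the peptides, the TAP transporter moves them into the endoplasmic reticulum, and tapasin helps load them onto a heavy chain paired with beta-2 microglobulin. Interferon gamma is known to raise most genes of the pathway and to replace the constitutive catalytic subunits of the proteasome with the immune ones, and hepatocytes carry little class I at rest compared with leukocytes.

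Medians of the arrays ranged from 5.32 to 5.38 (log2), and each array correlated with the rest of its time at 0.971 to 0.996. The arrays standing farthest from their own time were replicate 3 of 0.5 d (0.971) and replicate 1 of 0.25 d (0.975), which also had the highest 18S signal (13.04). Counts of members and some tests of members are given with and without these arrays. Most results for other genes and for gene lists are given only with them. A description field in the labels speaks of cells from fat, whereas the tissue and source fields say liver. The hepatocyte gene Alb lay between 14.60 and 14.80 on all 33 arrays, and the adipocyte gene Adipoq between 2.76 and 7.07, with values above 5 on replicate 3 of 0 d, replicate 2 of 0.25 d, replicate 3 of 2 d and replicate 3 of 7 d. Arrays of 0.25, 0.5, 0.75 and 1.5 d carry a later run of sample numbers than those of the other 7 times, which the labels do not call a batch. The differences of 0.25, 0.5, 0.75 and 1.5 d from 0 d cross the runs, so time and run cannot be told apart in them.

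Most members were lower than at 0 d at 0.5 and 0.75 d, and 0 members passed the test from 4 d on. The immunoproteasome subunits had the largest falls at 0.25 and 0.5 d. In a limma fit over all 33 arrays with Benjamini-Hochberg adjustment at 0.05, 8 of the 10 members varied over the 11 times by the moderated F-test, where 69.4% of all genes tested did. Against 0 d, 1 member was higher and 5 were lower at 0.25 d, when 45.9% of all genes passed, 17.2% higher and 28.8% lower. At 0.5 d 7 members were lower and 0 higher (35.2% of all genes passed, 19.4% lower and 15.8% higher), and at 0.75 d again 7 were lower and 0 higher (22.5% passed, 12.7% lower and 9.84% higher). The median difference of the members from 0 d was -0.44, -0.49 and -0.53 on the log2 scale at these 3 times, and that of all genes -0.03, 0.00 and 0.00. The same 3 arrays of 0 d enter all 10 of these comparisons, which are therefore not independent.

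The count of lower members was smaller afterwards. It was 3 at 1 d (17.7% of all genes passed, 9.55% lower and 8.16% higher), 4 at 1.5 d (20% passed, 11.7% lower and 8.33% higher), 3 at 2 d (22.5%, 11.6% and 11%) and 1 at 3 d (21.2%, 10.9% and 10.2%). At these 4 times 0 members were higher by limma, and 0 had an unadjusted p under 0.05 in that direction. At 4, 7 and 14 d 0 of 10 members passed the limma test in either direction, with 2.86% of all genes passing at 4 d (1.88% higher, 0.975% lower), 0.183% at 7 d (0.125% higher, 0.0586% lower) and 0.0147% at 14 d (all higher). At each of those 3 times 1 member was higher and 0 were lower at an unadjusted p under 0.05: Tapbp at 4 d (0.30), and H2-D1 at 7 d (0.17) and 14 d (0.15). Without replicate 1 of 0.25 d the 0.25 d counts were 0 higher and 6 lower, and without replicate 3 of 0.5 d 6 members were lower at 0.5 d. The count at 1.5 d was 2 without replicate 3 of 0 d or without any single array of 1.5 d, and that at 2 d was 1 without replicate 3 of 0 d. The count at 3 d was 0 without replicate 1 or 2 of 0 d or without any single array of 3 d. Fewer cells expressing a gene and less RNA per cell cannot be told apart in whole liver.

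Read by the arrays alone, more members lay wholly below 0 d than passed the test at each time but 7 d. All 3 arrays were below the 3 of 0 d for 6 members at 0.25 d (29.4% of all genes), 8 at 0.5 d (22.2%), 9 at 0.75 d (21.7%), 4 at 1 d (19.6%), 8 at 1.5 d (21.4%) and 7 at 2 d (19.2%). The count was 2 at 3 d (21.4%), 1 at 4 d (9.98%), 0 at 7 d (9.76%) and 1 at 14 d (12%). In the other direction, all 3 arrays were above those of 0 d for 1 member at 0.25 d (19.6% of all genes), 0 at 0.5 d (18.6%), 0 at 0.75 d (18.3%), 0 at 1 d (16.7%), 0 at 1.5 d (17.5%) and 0 at 2 d (15.1%). Here 1 member was wholly above at 3 d (18.3%), 2 at 4 d (12.1%), 1 at 7 d (6.96%) and 0 at 14 d (8.66%). The single member above at 3 and 7 d was H2-D1, which was joined by Tapbp at 4 d.

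**Figure D1:**
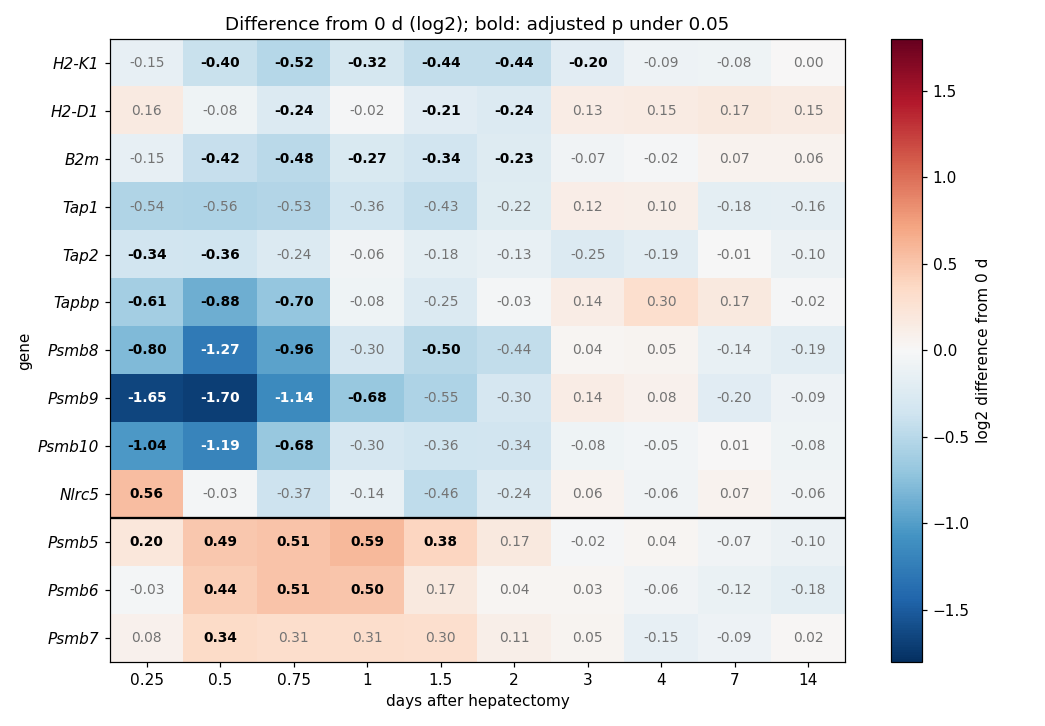
Differences from 0 d on the log2 scale (colour and printed value) for the 10 members, above the line, and the 3 constitutive catalytic subunits, below it, at 10 times after partial hepatectomy; bold values passed an adjusted p of 0.05 in limma. Psmb9 had the largest negative values, -1.65 at 0.25 d and -1.70 at 0.5 d, and Psmb5, Psmb6 and Psmb7 were higher at 0.5 d, by 0.49, 0.44 and 0.34.

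H2-K1 and H2-D1 encode the classical heavy chains that bind peptide, and B2m the light chain without which they do not reach the surface. H2-K1 had log2 values of 12.69, 12.79 and 12.80 at 0.75 d, against 13.27, 13.32 and 13.24 at 0 d. At 0.5 d its values were 12.82, 12.90 and 12.92, and at 2 d 12.76, 12.84 and 12.92. All 3 arrays of every time from 0.5 d to 3 d lay below the 0 d arrays, and H2-K1 fell at each of these 6 times by limma's test. The fall was -0.52 ± 0.06 (SE, adjusted p = 1.35e-06) at 0.75 d, which is 69.7% of the 0 d level, and -0.20 ± 0.06 (adjusted p = 0.0264) at 3 d. At 4, 7 and 14 d H2-K1 averaged 13.19, 13.20 and 13.28, with differences from 0 d of -0.09, -0.08 and 0.00.

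B2m followed a similar course. Its values were 13.40, 13.29 and 13.25 at 0.75 d, against 13.79, 13.71 and 13.87 at 0 d, with no overlap between the times. The differences that passed were -0.42 ± 0.07 at 0.5 d (adjusted p = 1.55e-05), -0.48 ± 0.07 at 0.75 d (6.52e-06), -0.27 ± 0.07 at 1 d (0.00551), -0.34 ± 0.07 at 1.5 d (0.000749) and -0.23 ± 0.07 at 2 d (0.0125). The last of these did not pass without replicate 3 of 0 d or without replicate 3 of 2 d. B2m averaged 13.71 ± 0.03 (SD, n = 3) at 3 d, 13.77 ± 0.09 at 4 d, 13.86 ± 0.05 at 7 d and 13.85 ± 0.04 at 14 d, against 13.79 ± 0.08 at 0 d.

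H2-D1 moved less. It had 12.14, 12.15 and 12.30 at 0.75 d, 12.20, 12.20 and 12.28 at 1.5 d and 12.21, 12.16 and 12.21 at 2 d, against 12.48, 12.32 and 12.51 at 0 d. The 3 times with all arrays below 0 d were the 3 at which it passed, with -0.24 ± 0.07 (adjusted p = 0.017), -0.21 ± 0.07 (0.0423) and -0.24 ± 0.07 (0.0155). Each of these calls was lost when any of several single arrays was left out, 4 arrays of 6 at 0.75 d, 5 at 1.5 d and 2 at 2 d. Between them, at 1 d, H2-D1 averaged 12.41 ± 0.05 against 12.43 ± 0.10 at 0 d (SD, n = 3), a difference of -0.02 with a 95% interval of -0.17 to 0.13.

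**Figure D2:**
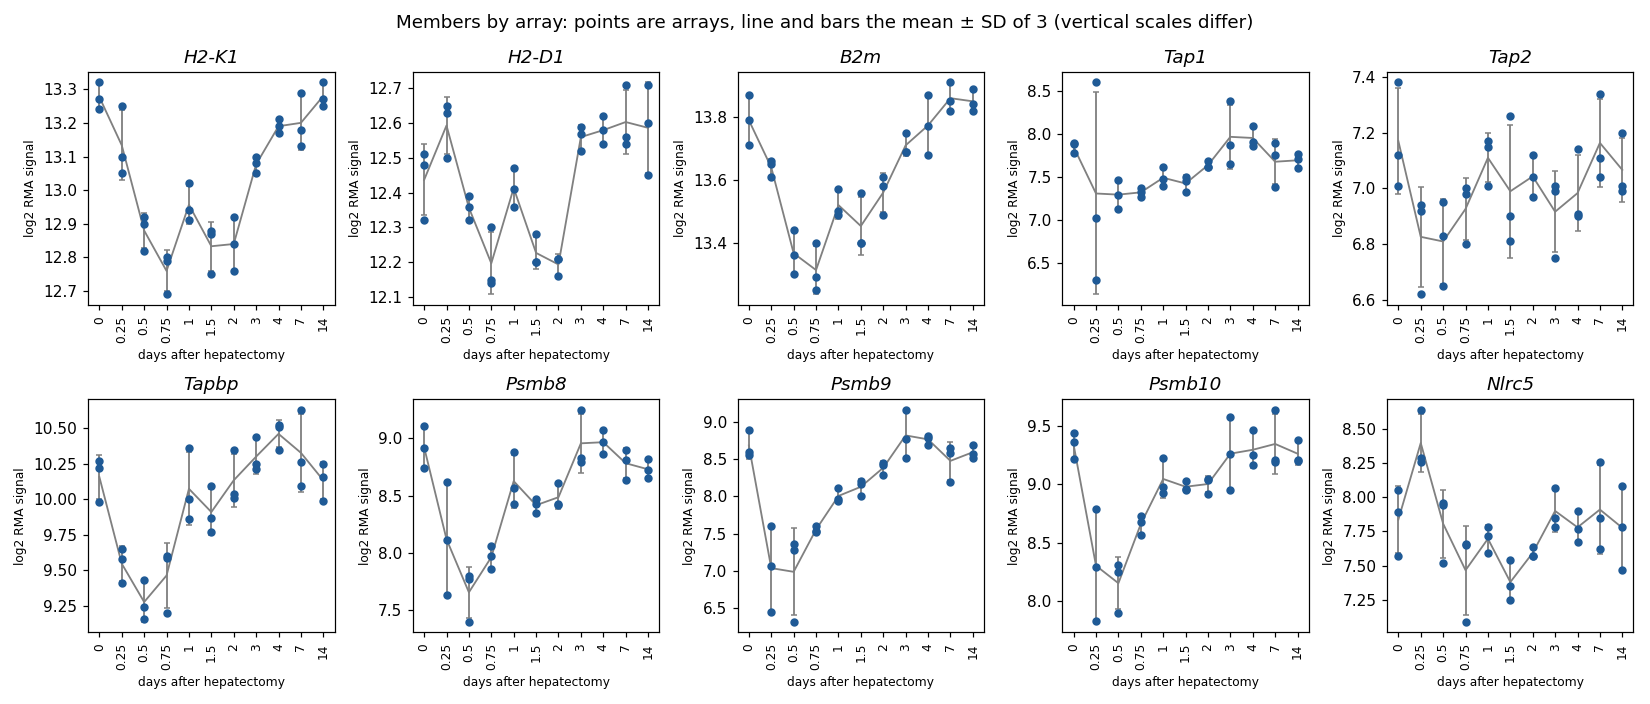
Log2 RMA signal of each member (vertical axis, scales differ between genes) on every array by days after partial hepatectomy (evenly spaced, not to scale); points are arrays, the line and bars the mean ± SD of 3. The arrays of 0.5 d lie below those of 0 d for the 3 immunoproteasome subunits and Tapbp, while Nlrc5 is highest at 0.25 d and Tap1 is widely scattered there, between 6.30 and 8.60.

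Probes for the heavy chains are hard to keep apart, since the genes are near copies of each other and strain differences can weaken binding. The annotation gives 4 single-symbol probe sets for H2-K1 and 9 for H2-D1, of which 8 were tested. Of the 4 H2-K1 sets 3 were lower at 0.5 d, and at 0.75 d the other 2 of these had differences of -0.62 ± 0.09 and -0.54 ± 0.10. The fourth, with a mean of 12.10, correlated with the H2-D1 set at r = 0.98 over the 33 arrays and with the H2-K1 set at 0.79. It was 0.20 ± 0.08 higher at 0.25 d (adjusted p = 0.0445 over all probe sets tested), where the H2-K1 set used was -0.15 ± 0.06. A probe set annotated to both genes, with a mean of 11.15, correlated with the H2-K1 set at 0.95 and was lower at 0.5 d (-0.43 ± 0.08) and 0.75 d (-0.60 ± 0.08). The 8 H2-D1 sets tested had differences of -0.25 to 0.06 at 0.5 d, with adjusted p of 0.0635 or more. The fall at 0.5 d is thus a property of 3 of the 4 H2-K1 probe sets, and assignment of the fourth to H2-K1 is uncertain. Among these 3, the set with a mean of 11.63 correlated with the H2-K1 set used at 0.93 and with the H2-D1 set at 0.80. The set with a mean of 7.88 correlated with them at 0.81 and 0.72. For the other members with more than a single tested set, both B2m sets and both Tapbp sets were lower at 0.5 d, and the other Tap1 set, at a mean of 5.42, had a difference of 0.05 ± 0.15.

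**Figure D3:**
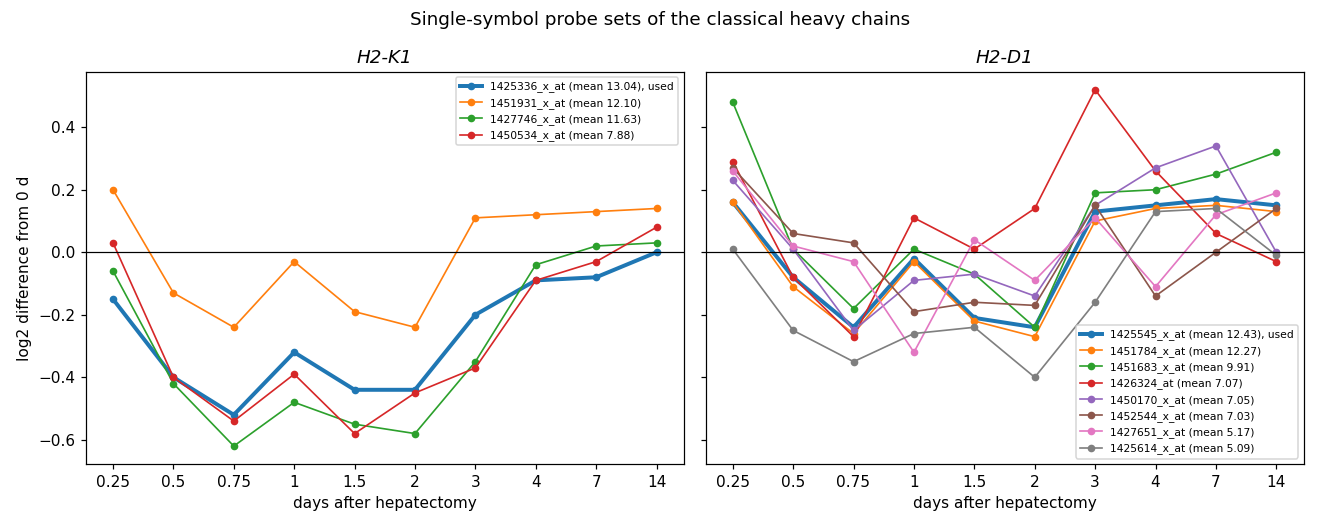
Difference from 0 d (log2) of every tested single-symbol probe set of H2-K1 (left) and H2-D1 (right) at 10 times after partial hepatectomy, the thick line being the set used for the gene. For H2-K1, 3 sets run together and the fourth (mean 12.10) runs above them, with 0.20 at 0.25 d and -0.13 at 0.5 d.

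The promoters of these 3 genes are known to be bound at conserved sites by interferon regulatory factors, by NF-kappaB and by the RFX, CREB and NF-Y proteins that recruit Nlrc5. They are shown with that of the immunoproteasome subunit Psmb8. All these genes were lower at 0.75 d, as were Tapbp, Psmb9 and Psmb10, whose promoters are not printed. Nlrc5 averaged 7.46 at that time against 7.84 at 0 d, lower at an unadjusted p under 0.05 in limma but not past the adjusted threshold. RefSeq windows of 300 bases (GRCm38.p6, 250 before and 50 after the gene's start) were given for 8 of the 10 members, not for Tap2 and Nlrc5. Those printed are H2-K1 at chr17:34000298-34000597 on the minus strand, H2-D1 at chr17:35262844-35263143 on the plus strand, B2m at chr2:122147437-122147736 on the plus strand and Psmb8 at chr17:34197945-34198244 on the plus strand. The H2-K1 window is built on a start, 34000347, that lies inside the annotated gene. On this strand the annotated gene starts at 34000619, so the whole window lies within it. Capitals mark, on either strand, a kappaB-like element, AANNGAAA (core letters of an interferon regulatory factor site), TTCNNNGAA (letters of a gamma-activated site) and TGACG followed after 20 bases by ATTGG (X2-like and Y-box-like).
H2-K1: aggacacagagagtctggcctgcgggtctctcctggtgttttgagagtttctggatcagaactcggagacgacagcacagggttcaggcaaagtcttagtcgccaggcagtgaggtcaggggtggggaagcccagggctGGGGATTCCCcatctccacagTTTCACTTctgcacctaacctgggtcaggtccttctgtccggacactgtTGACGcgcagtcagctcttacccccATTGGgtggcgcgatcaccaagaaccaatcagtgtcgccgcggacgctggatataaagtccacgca
H2-D1: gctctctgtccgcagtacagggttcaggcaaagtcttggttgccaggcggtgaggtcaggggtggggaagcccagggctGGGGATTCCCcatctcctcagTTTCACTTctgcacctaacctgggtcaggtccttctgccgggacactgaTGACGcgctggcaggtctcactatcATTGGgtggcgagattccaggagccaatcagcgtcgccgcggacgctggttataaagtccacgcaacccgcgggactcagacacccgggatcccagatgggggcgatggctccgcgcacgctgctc
B2m: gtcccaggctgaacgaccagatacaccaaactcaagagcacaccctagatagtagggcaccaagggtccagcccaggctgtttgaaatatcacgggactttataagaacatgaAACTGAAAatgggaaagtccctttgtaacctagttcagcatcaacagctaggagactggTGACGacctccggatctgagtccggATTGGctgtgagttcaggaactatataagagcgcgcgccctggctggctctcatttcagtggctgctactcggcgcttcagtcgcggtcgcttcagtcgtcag
Psmb8: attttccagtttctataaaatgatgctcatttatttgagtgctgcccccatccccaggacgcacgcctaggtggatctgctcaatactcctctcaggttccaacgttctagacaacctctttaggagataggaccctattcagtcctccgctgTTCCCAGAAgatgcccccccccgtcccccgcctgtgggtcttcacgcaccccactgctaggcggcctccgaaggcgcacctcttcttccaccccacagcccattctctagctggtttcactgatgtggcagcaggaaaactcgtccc

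TGACG followed by ATTGG at a spacing of 20 bases was found in the windows of H2-K1 (positions -41 to -12, the start being 0), H2-D1 (-101 to -72) and B2m (-78 to -49), and in 31 of 32851 windows in all (0.0944%). The spacing was taken from the members' own windows, so their matches are a description. Apart, TGACG is in 20.8% and ATTGG in 37.4% of windows. The kappaB-like element stood in the H2-K1 and H2-D1 windows and in 0.107% of all windows, and AANNGAAA in those of H2-K1, H2-D1 and B2m and in 23.9% of all. The Psmb8 window held TTCNNNGAA, at positions -97 to -89, as do 8.3% of windows. The windows of Tapbp, Psmb9 and Psmb10, also lower at 0.75 d, held none of the marked elements. AANNGAAA stood too in the window of the constitutive subunit Psmb6, which was higher at 0.75 d. That of Psmb5, also higher then, held no marked element. The H2-K1 and H2-D1 windows shared 176 of 240 aligned bases (73.3%). The Tap1 and Psmb9 windows overlap by 275 bases on opposite strands, with starts 226 bases apart, and 7 of the 10 members lie on chromosome 17. A match is not a bound site, and binding was not measured.

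Tap1 and Tap2 form the transporter that carries peptides into the endoplasmic reticulum, and Tapbp holds it beside the empty heavy chain. Tapbp had 9.43, 9.24 and 9.16 at 0.5 d, against 9.98, 10.27 and 10.22 at 0 d. It fell by 0.61 ± 0.14 at 0.25 d (SE, adjusted p = 0.0011), by 0.88 ± 0.14 at 0.5 d (2.48e-05) and by 0.70 ± 0.14 at 0.75 d (0.000748), with all arrays of these times below those of 0 d. At 1 d its arrays overlapped the 0 d arrays, at 9.86 to 10.36, and the difference was -0.08 ± 0.14. Tapbp was thus back among the 0 d values a day after surgery, while H2-K1 and B2m still lay below theirs.

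Tap2 had 6.94, 6.92 and 6.62 at 0.25 d and 6.83, 6.95 and 6.65 at 0.5 d, against 7.38, 7.01 and 7.12 at 0 d. The differences of -0.34 ± 0.12 (adjusted p = 0.0249) and -0.36 ± 0.12 (0.024) passed. Each was lost without replicate 1 of 0 d or without the lowest array of its time, and over the whole course Tap2 did not pass the F-test (adjusted p = 0.0965).

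Tap1 passed no comparison and not the F-test (adjusted p = 0.243), and its spread at 0.25 d decided this. Its values there were 8.60, 7.02 and 6.30, against 7.78, 7.88 and 7.89 at 0 d, so that a single array lay above and the other 2 below all 0 d arrays. Without replicate 1 of 0.25 d the difference was -1.19 (adjusted p = 1.22e-05) and the F-test passed (1.94e-05). On all later times up to 2 d the Tap1 arrays lay wholly below those of 0 d: 7.29, 7.46 and 7.13 at 0.5 d, 7.32, 7.27 and 7.37 at 0.75 d, 7.47, 7.39 and 7.61 at 1 d, 7.45, 7.50 and 7.32 at 1.5 d, and 7.61, 7.69 and 7.61 at 2 d. The differences at 0.5 and 0.75 d were -0.56 and -0.53, with 95% intervals of -1.17 to 0.05 and -1.14 to 0.08. With only the arrays of the times compared, the adjusted p for these was 0.0181 and 0.00407.

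The scatter at 0.25 d was shared by some other members. Replicate 1 of 0.25 d held the highest of the 3 values in 6 of the 10 members and the lowest in 2. Replicate 3 held the lowest in 8. This order was not counted over all genes, and replicate 1 was among the arrays farthest from their own time. Psmb8 had 8.62, 8.11 and 7.63 there, Psmb9 7.60, 7.06 and 6.44, and Psmb10 8.79, 8.29 and 7.83, each in the order of replicates 1, 2 and 3. The summed level of 38 interferon response genes ran from 13.16 to 15.18 over the same arrays, against 13.85 to 14.08 at 0 d. Whether this is a difference between animals or between samples was not tested.

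Psmb8, Psmb9 and Psmb10 encode the inducible catalytic subunits (LMP7, LMP2 and MECL-1) that take the place of Psmb5, Psmb6 and Psmb7 in the immunoproteasome and shift cleavage towards peptides that fit class I. Their falls were the largest among the members at 0.25 and 0.5 d. Psmb9 had 7.60, 7.06 and 6.44 at 0.25 d, 7.28, 7.36 and 6.31 at 0.5 d and 7.52, 7.54 and 7.60 at 0.75 d, against 8.90, 8.60 and 8.56 at 0 d. Its mean was then higher at each next time up to 3 d, with 7.96, 7.94 and 8.12 at 1 d, 8.17, 8.01 and 8.21 at 1.5 d and 8.29, 8.45 and 8.42 at 2 d, all still below the lowest 0 d array. At 3 d it had 8.52, 9.17 and 8.78, and from there on its arrays overlapped those of 0 d. The differences that passed were -1.65 ± 0.22 at 0.25 d (adjusted p = 2.23e-06), -1.70 ± 0.22 at 0.5 d (1.6e-06), -1.14 ± 0.22 at 0.75 d (0.000509) and -0.68 ± 0.22 at 1 d (0.0354). At 0.5 d Psmb9 stood at 30.8% of its 0 d level. Without replicate 3 of 0.5 d the difference there was -1.36 (adjusted p = 1.7e-05). The call at 1 d was lost without any of 5 of the 6 arrays.

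Psmb8 reached its lowest mean at 0.5 d, with 7.77, 7.80 and 7.40 against 9.11, 8.74 and 8.92 at 0 d. It fell by 0.80 ± 0.17 at 0.25 d (adjusted p = 0.000426), by 1.27 ± 0.17 at 0.5 d (1.99e-06) and by 0.96 ± 0.17 at 0.75 d (0.000145). At 1 d its arrays overlapped those of 0 d (8.88, 8.43 and 8.57). At 1.5 d the difference from 0 d was -0.50 ± 0.17 (adjusted p = 0.0351), a call that was lost without any of 5 of the 6 arrays. At 2 d it was -0.44 ± 0.17 and did not pass (adjusted p = 0.0642). Against the mean of 1 d and 2 d, Psmb8 at 1.5 d differed by -0.14 ± 0.15 (adjusted p = 0.877). These times cross the runs of sample numbers, and 1.5 d was not tested against 1 d alone.

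Psmb10 had 8.31, 8.25 and 7.90 at 0.5 d, against 9.36, 9.44 and 9.22 at 0 d. Its differences were -1.04 ± 0.17 at 0.25 d (adjusted p = 2.93e-05), -1.19 ± 0.17 at 0.5 d (5.95e-06) and -0.68 ± 0.17 at 0.75 d (0.00511), and its arrays of 1.5 and 2 d lay below those of 0 d without passing. The 3 subunits fell at all of the first 3 times and kept these 9 calls when each array of 0 d or of the time compared was left out in turn, with the highest adjusted p at 0.0265 for Psmb10 at 0.75 d.

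The constitutive counterparts moved the other way. Psmb5, the chymotrypsin-like subunit, had 11.28, 11.43 and 11.47 at 1 d, against 10.84, 10.79 and 10.77 at 0 d, and rose at all 5 times from 0.25 d (0.20 ± 0.08, adjusted p = 0.0354) to 1.5 d (0.38 ± 0.08, 0.00088), by at most 0.59 ± 0.08 at 1 d (5.76e-06). The Psmb5 call at 0.25 d was lost with a joint adjustment (adjusted p = 0.0711), with equal array medians (0.097), with only the arrays compared (0.19) and without any of 4 of the 6 arrays. Psmb6, the caspase-like subunit, rose by 0.44, 0.51 and 0.50 (SE 0.08 each) at 0.5, 0.75 and 1 d. Psmb7, the trypsin-like subunit, rose at 0.5 d (0.34 ± 0.11, adjusted p = 0.0197). The difference of immune minus constitutive subunit on the same array removes any shift of a whole array, and its change from the 0 d mean was read. At 0.5 d this change was -1.76 ± 0.31 for Psmb8 minus Psmb5, -2.14 ± 0.58 for Psmb9 minus Psmb6 and -1.53 ± 0.25 for Psmb10 minus Psmb7 (SD, n = 3). All 3 pairs lay wholly below their 0 d arrays at each of the 6 times from 0.25 to 2 d, and overlapped them at 3, 4, 7 and 14 d. Each of these 18 two-sided exact permutation tests of 3 against 3 arrays gave p = 0.1, the smallest this design allows, and adjusted p = 0.167 over the 30 tests.

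**Figure D4:**
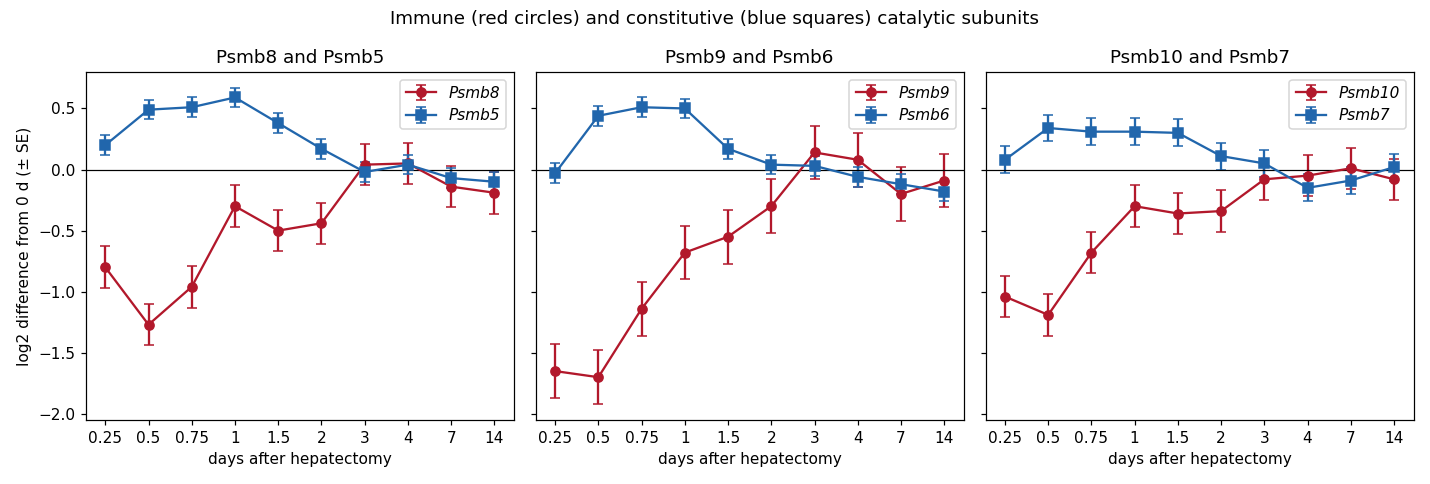
Difference from 0 d (log2, ± SE of the limma fit) of each immune subunit (red circles) and the constitutive subunit it replaces (blue squares) at 10 times after partial hepatectomy. From 0.5 to 1.5 d the immune subunits lie below 0 and the constitutive ones above it, and from 3 d on both lie near 0.

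The subunits that both kinds of proteasome share were mostly higher too. Of 11 such core subunits 9 were higher at 0.5 d and 9 at 0.75 d, all 11 at 1 d and 4 at 1.5 d, and 0 were lower at any of these times. Of all genes 15.8%, 9.84%, 8.16% and 8.33% were higher at these times. Among the core subunits Psma1 rose by 0.72 ± 0.09 (limma, adjusted p = 1.74e-06) and Psma7 by 0.68 ± 0.10 (2.29e-05) at 1 d. The list's median was 0.39 at 0.5 d, against 0.00 for all genes. Of 8 activator and assembly genes 2 were higher and 2 lower at 0.5 d, near the shares of all genes (15.8% higher and 19.4% lower). In this list 0 were higher and 5 lower at 0.25 d (17.2% and 28.8% of all genes). By 1 d 3 were higher and 0 lower (8.16% and 9.55% of all genes). Psme1, a subunit of the interferon-inducible PA28 cap, fell by 0.58, 0.88 and 0.71 (SE 0.10 each) at 0.25, 0.5 and 0.75 d, and Psme3, the PA28-gamma cap of the nucleus, rose by 0.51 ± 0.11 at 0.5 d (adjusted p = 0.000568).

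Nlrc5, which recruits transcription factors to class I promoters, was the single member that rose at 0.25 d in the fit on 1 probe set per gene. With the mean of all single-symbol probe sets of a gene, H2-D1 passed there too (0.21, adjusted p = 0.0101). Nlrc5 had 8.64, 8.29 and 8.26 at 0.25 d, against 7.57, 8.05 and 7.89 at 0 d, a difference of 0.56 ± 0.17 (adjusted p = 0.0108). The call was lost without replicate 1 of 0 d (adjusted p = 0.0751), without replicate 1 of 0.25 d (0.0735) and with array weights (0.0572). Its values were 7.52, 7.94 and 7.96 at 0.5 d and 7.66, 7.65 and 7.09 at 0.75 d, overlapping those of 0 d, and 7.54, 7.35 and 7.25 at 1.5 d, below them with a difference of -0.46 ± 0.17 (adjusted p = 0.0615). Over the 33 arrays Nlrc5 correlated with the other members at -0.13 to 0.59, and least with Psmb9 and Tap2.

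Among 25 other regulators known to act in this pathway, 4 were higher and 4 lower at 0.25 d, when 45.9% of all genes passed, and 2 were higher and 5 lower at 0.5 d, when 35.2% did. These counts are no larger than the share of all genes, and the list's median was 0.00 and 0.01. Irf1, which drives Psmb9 and Tap1 after interferon gamma, fell by 0.69 ± 0.18 at 0.25 d (adjusted p = 0.00263) and by 0.49 ± 0.18 at 0.5 d (0.035). Irf2, its relative at the same sites, was lower at the 5 times from 0.5 to 2 d, with a difference of -1.17 ± 0.20 at 1.5 d (0.000182). Rfx5, of the complex that holds Nlrc5 at the promoter, fell by 1.06 ± 0.20 at 0.25 d (0.000117) and had a difference of -0.07 ± 0.20 at 0.5 d. Socs3, which is induced by cytokines and damps their JAK signals, rose by 3.69 ± 0.67 at 0.25 d (8.99e-05), and Socs1, which does the same for interferon gamma, by 0.93 ± 0.22 (0.00125). Jak2, a kinase of the interferon gamma receptor, fell by 0.60 ± 0.09 at 0.25 d (9.08e-06). Ciita, the class II counterpart of Nlrc5, had differences of -0.22 to 0.11, with adjusted p of 0.149 or more, and Ifng did not reach the filter on low signal.

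The arrays of 0.25, 0.5, 0.75 and 1.5 d share the later run of sample numbers, so 1.5 d was also compared with each of these earlier times. Against 0.5 d, Tapbp (0.63 ± 0.14), Psmb8 (0.76 ± 0.17), Psmb9 (1.15 ± 0.22) and Psmb10 (0.83 ± 0.17) were higher at 1.5 d and 0 members were lower, while 24.3% of all genes passed, 12.2% higher and 12.1% lower. Psmb9 thus had 8.17, 8.01 and 8.21 at 1.5 d against 7.28, 7.36 and 6.31 at 0.5 d, a difference with adjusted p = 0.000474. Against 0.25 d, where 35.9% of all genes passed (23.1% higher, 12.8% lower), Tapbp, Psmb9 and Psmb10 were higher at 1.5 d and H2-K1, H2-D1, B2m and Nlrc5 lower. H2-K1 differed there by -0.30 ± 0.06 (adjusted p = 0.000739), H2-D1 by -0.36 ± 0.07 (0.000268) and Nlrc5 by -1.02 ± 0.17. Against 0.75 d 0 members passed in limma, with 4 higher and 0 lower at an unadjusted p under 0.05 and 7.39% of all genes passing (4.03% higher, 3.36% lower). Set against the mean of 1 d and 2 d, which have the earlier sample numbers, 1.5 d gave 0 calls among members, 0 at an unadjusted p under 0.05 and 0.0220% among all genes (0.00733% higher, 0.0147% lower).

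The lowest mean level stood at 0.5 d for Tap1, Tap2, Tapbp, Psmb8, Psmb9 and Psmb10, at 0.75 d for H2-K1 and B2m, at 1.5 d for Nlrc5 and at 2 d for H2-D1. Ordered by level, most neighbouring times overlapped. Of the 10 steps between neighbours only 2 showed no overlap for Psmb9, from 0.75 to 1 d and from 1.5 to 2 d in rising order, 2 for B2m and H2-D1, 1 for H2-K1, Tap1, Tapbp, Psmb8, Psmb10 and Nlrc5, and 0 for Tap2. For H2-K1 the gap fell between 1 d (12.91 to 13.02) and 3 d (13.05 to 13.10), and neighbours in the order below it overlapped. For Nlrc5 it fell between 0.25 d and the next highest time, 7 d.

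Correlations across the 33 arrays are given as a description, since all genes share the arrays and the time course. Psmb9 and Psmb10 correlated at r = 0.94, Psmb8 with each at 0.92, and Tapbp with the 3 at 0.85 to 0.87. H2-K1 and B2m correlated at 0.85 and H2-K1 and H2-D1 at 0.80, whereas H2-D1 and Psmb9 correlated at 0.27. Among genes outside the list, those most like the members' mean pattern over the 33 arrays were AW112010 (r = 0.951), Psme1 (0.924), Calhm6 (0.923), Ctsb (0.913), Npc2 (0.905), Glb1 (0.894), Gstm6 (0.891) and Amdhd2 (0.889). AW112010 had a mean of 9.27 at 0.5 d against 11.14 at 0 d (-1.87 ± 0.18), and Ctsb, a lysosomal protease, differed by -0.77 ± 0.10. These genes were picked for following the members on the same arrays, so their low values at 0.5 d are only a description.

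Other genes of class I presentation did not all follow. H2-Q10, a secreted heavy chain that mouse liver makes in quantity, was lower at the 4 times from 0.25 to 1 d, with a difference of -0.63 ± 0.08 at 0.5 d (adjusted p = 9.5e-07), and was higher at 3 d (0.29 ± 0.08, 0.0104) and 4 d (0.31 ± 0.08, 0.0315). Of 5 other heavy-chain genes tested, H2-Q10 among them, 1 was lower and 0 higher at 0.5 d. Of 13 genes for loading and trimming, 6 were higher and 3 lower at 0.5 d. Of all genes 19.4% were lower and 15.8% higher at that time, so the counts of lower genes in both lists are near the share of all genes. The chaperones led the rise, with Hspa5 at 1.31 ± 0.19 (5.95e-06), Pdia3 at 1.08 ± 0.18 (3.16e-05), Calr at 0.93 ± 0.14 (1.34e-05) and Uggt1 at 0.79 ± 0.11 (4.4e-06), all of which also fold other secreted proteins. Erap1, the peptidase that trims peptides in the endoplasmic reticulum, fell by 0.56 ± 0.09 (3.09e-05). Among 6 class I-like molecules, Fcgrt, the receptor that spares IgG and albumin, was lower at the 6 times from 0.5 to 3 d, with a difference of -0.78 ± 0.11 at 3 d (1.3e-05).

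Some interferon response and class II genes had larger differences than any member. Of 38 interferon response genes tested 13 were lower (19.4% of all genes) and 0 higher (15.8%) at 0.5 d, and 8 were lower at 0.75 d (12.7%). The list's median was -0.26 at 0.25 d, -0.81 at 0.5 d, -0.48 at 0.75 d and -0.02 at 1 d, beside -0.44, -0.49, -0.53 and -0.28 for the members. The differences at 0.5 d were -2.94 ± 0.66 for Gbp6 (adjusted p = 0.000967), -2.38 ± 0.38 for the chemokine Cxcl9 (1.84e-05), -2.19 ± 0.65 for Ifit1 (0.0104) and -2.17 ± 0.45 for Ifit3 (0.00044). Of 7 class II genes tested 0 passed in limma at 0.25 d (0 at an unadjusted p under 0.05), when 45.9% of all genes did. In this list 5 were lower at 0.5 d (19.4% of all genes), 4 at each time from 1 to 3 d (9.55% to 11.7%) and 3 at 4 d (0.975%). H2-Aa had a mean of 6.25 at 2 d against 9.56 at 0 d (-3.30 ± 0.34, 1.55e-07), a time at which Psmb9, Psmb8 and Tapbp no longer passed.

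Markers of other liver cells moved with some of these falls. Of 15 Kupffer cell markers, the macrophages of the liver, 6 were lower (19.4% of all genes) and 1 higher (15.8%) at 0.5 d. Among these markers were Csf1r (-1.26 ± 0.24, adjusted p = 0.000231) and Clec4f (-1.20 ± 0.23, 0.000169), with Marco higher (1.92 ± 0.63, 0.0185). Their summed level ran from 11.73 to 12.45 at 0.5 d, against 12.70 to 13.01 at 0 d. At 1 d it ran from 13.10 to 13.25, above the 0 d arrays, while H2-K1, B2m and Psmb9 were lower. At 3 d 6 of the 15 were higher (10.2% of all genes) and 0 lower (10.9%). Of 18 T and NK cell markers listed, 15 were on the array and 7 of those did not reach the filter (Cd3g, Cd8b1, Cd5, Klrd1, Ncr1, Gzma and Cd2). Of the 8 tested 0 passed in limma at 0.5 d (35.2% of all genes did), with 1 at an unadjusted p under 0.05. The summed level of these 8 ran from 8.57 to 8.74, against 8.66 to 8.75 at 0 d. The summed level of 11 hepatocyte markers was 17.14 to 17.21 at 0.5 d, against 17.15 to 17.20 at 0 d. Such a sum adds unlogged signals, so the brightest markers weigh most in it. Of these 11, 1 was higher (15.8% of all genes) and 2 were lower (19.4%) at 0.5 d. Some markers of adipocytes, of neutrophils and monocytes and of cholangiocytes were higher at 0.25 d. The summed level of 5 adipocyte markers tested ran from 10.73 to 11.09 at 0.25 d and from 9.29 to 11.32 at 0.5 d, against 8.49 to 9.38 at 0 d. Of these 5, 2 were higher (17.2% of all genes) and 1 lower (28.8%) at 0.25 d. The higher ones were Cidec (5.31 ± 0.55, adjusted p = 5.44e-08), a lipid droplet protein, and Fabp4 (2.06 ± 0.53, 0.00289), a fatty acid carrier, whereas Adipoq had a difference of 0.22 ± 0.83. Of 9 neutrophil and monocyte markers 4 were higher and 0 lower at 0.25 d, with a median difference of 0.36. Of 4 cholangiocyte markers 2 were higher and 0 lower then, with 7.83 to 8.31 against 7.24 to 7.69 at 0 d. The shares of all genes at 0.25 d were 17.2% higher and 28.8% lower. The part of these cell types in the members' differences was not tested.

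**Figure D5:**
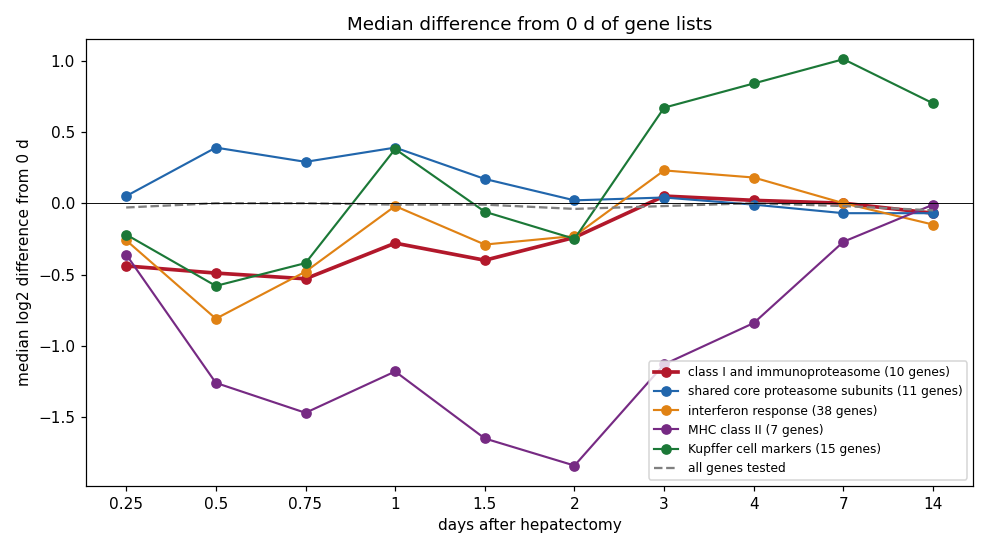
Median log2 difference from 0 d of the members, of 4 related gene lists and of all 13642 genes tested, at 10 times after partial hepatectomy. The members' median lies between -0.53 and -0.24 up to 2 d and near 0 from 3 d, the shared core subunits lie above 0 from 0.5 to 1.5 d, the class II genes stay low to 4 d, and the Kupffer cell markers are above 0 at 1 d and from 3 d on.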

How the data were processed

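Total RNA of mouse liver was labelled from 5 µg and hybridized to Affymetrix mouse genome arrays, per the labels' protocols. The deposited values are log2 signals that the authors made with RMA, per the submitters' processing notes, of which no version was at hand. RMA corrects background, equalizes the distributions of the arrays and joins the probes of a set, so a shift shared by most genes is removed and changes near the floor are compressed. The number of arrays limits precision, and no count depth exists.

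Of 45101 probe sets, 34945 have a single symbol, 932 have several and 64 are controls, and 34741 single-symbol sets matched the RefSeq gene table by Entrez number with 0 symbols changed. A gene was kept, as 13642 of 18193 were, if 3 or more arrays had it at log2 5 or above. The model, in limma 3.58.1 (R 4.3.3), had 1 coefficient for each time over the 33 arrays, with 22 residual and, after eBayes, 3.69 prior degrees of freedom. Two-sided p-values had Benjamini-Hochberg adjustment over the genes of each of 14 comparisons, and they measure the spread between the samples that the labels call biological replicates. Intervals are at 95%.

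The 20 gene lists, the members being 1 of them (272 genes, 232 on the array), were chosen with earlier results of these data known. Genes named were all members, Psmb5, Psmb6 and Psmb7, per list and comparison up to 4 genes past the threshold with the largest differences, up to 4 per list with the largest F, any listed regulator, the 8 genes most like the members, and Alb and Adipoq. Probe sets and promoter matches were described beside these. Replicate numbers did not pair the arrays: deviations of arrays with the same number correlated at a median of 0.018 over 165 pairs of arrays (-0.35 to 0.39). Alternatives were array weights, a filter at 7 or none, averaging of all probe sets of a gene, the replicate number as a block, quantile normalization, equal array medians, a prior that is robust and follows intensity, only the arrays compared, a joint adjustment, and each array left out in turn. The steps were tested on simulated data. Figures used matplotlib 3.10.9 (Python 3.11.15).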

Additional observations from a re-analysis of the deposited data

How the results depend on the processing

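Of 54 calls on members and constitutive subunits, 0 were reversed under any alternative. With only the arrays of the times compared 16 were lost, and 9 others were made. The intensity trend, the filter at 7 and the replicate block lost 0, the joint adjustment lost 2 of the 40 it covers, and the other alternatives on the full set lost 2 to 5. Leaving out each array in turn lost 55 of 324. With only the arrays compared, 1 member passed at 2 d (3 in the full fit), 0 at 3 d (1) and 3 at 1.5 d against 0.25 d (7), and quantile normalization also gave 0 at 3 d. For 1.5 d against 0.75 d, where 0 passed, array weights gave 4, only the arrays compared 3, and the filter at 7, the mean of probe sets, quantile normalization and the replicate block 1 each. The replicate block changed no other count of members, and the numbers do not pair the arrays.

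With each array left out in turn, the members passing numbered 4 to 7 at 0.25 d, 6 to 7 at 0.5 and 0.75 d, 2 to 3 at 1 d, 2 to 4 at 1.5 d, 1 to 3 at 2 d, 0 to 1 at 3 d and 0 at 4, 7 and 14 d. They numbered 5 to 8 for 1.5 d against 0.25 d, 4 to 5 against 0.5 d, and 0 against 0.75 d and against the mean of 1 d and 2 d. By the F-test 8 to 9 varied, and 18 to 19 of the 30 pair differences did not overlap 0 d.

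The background shifts too. With only the arrays compared, all genes passing were 3702 at 0.25 d (6265 in the full fit), 2443 at 0.5 d (4808), 1663 at 2 d (3074), 160 at 4 d (390), 0 at 7 d (25) and 14 d (2), 1449 for 1.5 d against 0.5 d (3317), 1719 against 0.75 d (1008) and 0 against the mean of 1 d and 2 d (3). Array weights gave 3181 and 292 for the last 2 of these and 12 at each of 7 d and 14 d. A joint adjustment gave 954, 567 and 537 at 4, 7 and 14 d. At 7 d quantile normalization gave 16. It also changed the split by direction at 0.25 d, to 3084 higher and 3153 lower (2340 and 3925 in the full fit). Like shifts came at 0.75 d (1591 and 1493, from 1342 and 1734) and 1.5 d (1352 and 1385, from 1137 and 1592). The shares of all genes given for each direction thus depend on the normalization. At 14 d a common median gave 7, and both filters 0, as did the mean of probe sets for 1.5 d against the mean of 1 d and 2 d. The causes were not tested.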
